A study of Mus musculus with 2 samples.

Results

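The MHC class II antigen presentation genes were followed on 2 Affymetrix mouse GeneChips of splenocytes from arthritic and control mice. The genes were chosen by name, as H2-Aa, H2-Ab1, H2-Eb1, H2-DMa, H2-DMb1, H2-Oa, H2-Ob, Cd74 and Ciita, and every probe set that the platform annotation pairs with exactly 1 of these symbols was taken. A probe set is a group of short oligonucleotides that read 1 transcript and are summarized as 1 signal. This gave 11 probe sets of 7 genes, out of 20380 single-symbol probe sets of 12393 genes on the array. The other 2 genes, H2-DMb1 and H2-Ob, had no probe set of their own and are described only through 3 probe sets that each carry a second gene symbol as well.

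The GPI-immunized group were male DBA/1 mice injected with 300 μg of GPI-GST, human glucose-6-phosphate isomerase fused to glutathione S-transferase, and the control-immunized group were male DBA/1 mice injected with 100 μg of GST alone. Both groups received the protein in complete Freund's adjuvant at 6 to 8 weeks of age, and spleens were taken at day 10. Each group supplied 3 spleens, and no source used here says if their RNA was pooled. With 1 array per group there were no replicates, no test was possible, and every ratio below describes these 2 arrays only.

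MHC class II molecules are pairs of an α and a β chain that show peptides from swallowed material to CD4+ T cells. They are made by B cells, dendritic cells and macrophages, which are all present in the spleen. In mice the A molecule is built from H2-Aa and H2-Ab1, and the E molecule from the products of H2-Ea and H2-Eb1. The DBA/1 strain carries the q haplotype of the H2 complex, which displays the A molecule and not the E molecule. New class II pairs are held by the invariant chain, the product of Cd74, which is then cut down to a peptide called CLIP. H2-DM, a pair made from H2-DMa and an H2-DMb chain, exchanges CLIP for other peptides, and H2-DO, made from H2-Oa and H2-Ob, holds H2-DM back, mainly in B cells. Ciita encodes the class II transactivator, which switches these genes on together without touching DNA itself. It sits on the factors RFX, CREB and NF-Y, which bind the X and Y boxes in front of class II genes.

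The promoters are shown as background on the X and Y boxes, and their part in the ratios below was not tested. RefSeq sequences of the C57BL/6J genome (GRCm38.p6) were in hand for 6 of the 9 genes, on chromosome 17, and they can differ from the DBA/1 sequence. In 4 of the 6 genes the letters GCAAC, from the X box, were followed by ATTGG, the NF-Y core of the Y box, on the strand of the gene. The 100 bases from 120 to 21 bases before the annotated start are given for these 4 genes, 5′ to 3′ on the gene's strand, with both cores in capitals.
H2-Aa (chr17:34287844-34287943, minus strand): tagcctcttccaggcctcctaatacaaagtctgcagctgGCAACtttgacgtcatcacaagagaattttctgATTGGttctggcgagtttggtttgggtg
H2-Eb1 (chr17:34305747-34305846, plus strand): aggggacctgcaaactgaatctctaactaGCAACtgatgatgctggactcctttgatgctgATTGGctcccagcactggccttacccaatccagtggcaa
H2-Oa (chr17:34092259-34092358, plus strand): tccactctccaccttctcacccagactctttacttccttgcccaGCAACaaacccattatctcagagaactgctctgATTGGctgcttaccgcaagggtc
H2-Ob (chr17:34238785-34238884, plus strand): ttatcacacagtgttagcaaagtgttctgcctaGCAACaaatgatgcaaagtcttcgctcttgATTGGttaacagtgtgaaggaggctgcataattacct

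The spacing of the cores was close in the 4 promoters. The gap between them was 28 bases in H2-Aa, 27 in H2-Eb1, 28 in H2-Oa and 25 in H2-Ob, and the X core began 81, 91, 76 and 87 bases before the start in the same order. Of all 32851 promoters of 300 bases in the table, 1.01% held GCAAC and ATTGG with a gap of 20 to 40 bases in this order on either strand, a search set after the sequences had been seen. The longer Y box letters CTGATTGG, which contain ATTGG, stood in H2-Aa, H2-Eb1 and H2-Oa and in 4.10% of all promoters. The X box letters AGCAAC stood in H2-Eb1, H2-Oa and H2-Ob and in 14.8% of all promoters, and a longer form, AGNAAC directly followed by NGNTG, in H2-Eb1 and H2-DMb1 and in 1.18%. ATTGG alone is common and stood in 37.4%. Each search covered both strands. H2-DMb1 and its neighbour H2-DMb2 had ATTGG at 61 and 90 bases before the start with no GCAAC, and neither of the windows listed for H2-DMa held the ordered pair. These matches describe letters, and no binding was measured here.

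**Figure D1:**
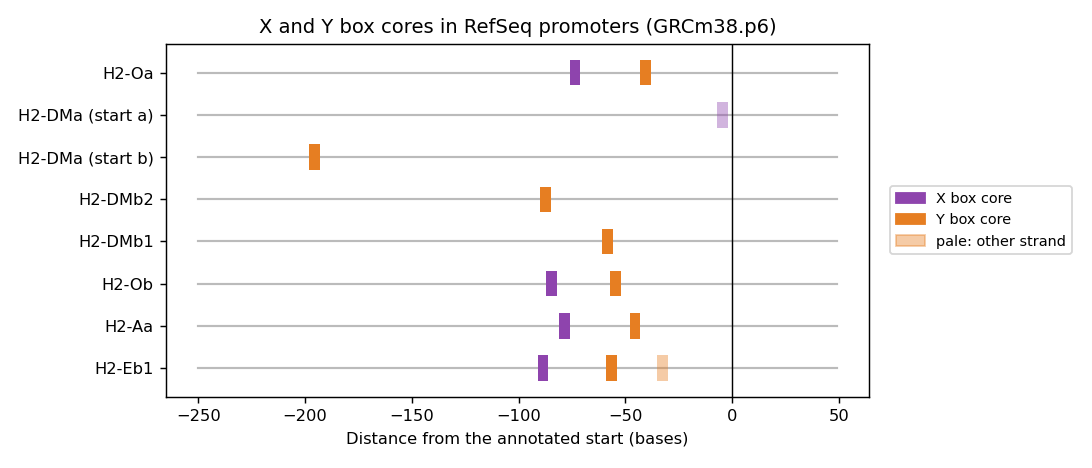
Positions of the X box core and the Y box core (coloured bars, pale on the other strand) along RefSeq promoters of class II genes, with the distance from the annotated start in bases on the horizontal axis and 1 line per annotated start. H2-Oa, H2-Ob, H2-Aa and H2-Eb1 each show the X core 76 to 91 bases before the start with the Y core 25 to 28 bases after it.

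All 7 measured genes gave a lower signal in GPI-immunized splenocytes than in control-immunized splenocytes, when each gene was read by its brightest probe set. Among all 6961 genes with sufficient signal, defined as at least 50.2 (the 50th percentile of all signals) on either array, 42.4% were lower, and among the brightest 10% of all genes (1240 genes) 43.3% were lower. The background depended on the scaling, being 54.9% after division of each array by its median, 53.4% after quantile normalization and 51.8% after loess centring, while all 7 members stayed lower with each. Over the 11 probe sets, 10 were lower, against 40.4% of all single-symbol probe sets with sufficient signal. The size of the difference was small. The median ratio of the 7 genes was 0.831 (log2 ratio -0.27), where the median of the 6961 genes was 1.04 (log2 ratio 0.056), and the ratios ran between 0.593 for H2-Eb1 and 0.963 for H2-Aa. None of the 7 was at least 2-fold lower, a size reached by 0.445% of the 6961 genes, and none was at least 2-fold higher, reached by 2.23%. A ratio of at most 0.8 was reached by 3 of the 7, namely H2-Eb1, Ciita and H2-Oa, where 12.0% of the 6961 genes and 10.0% of the brightest ones were that low.

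**Figure D2:**
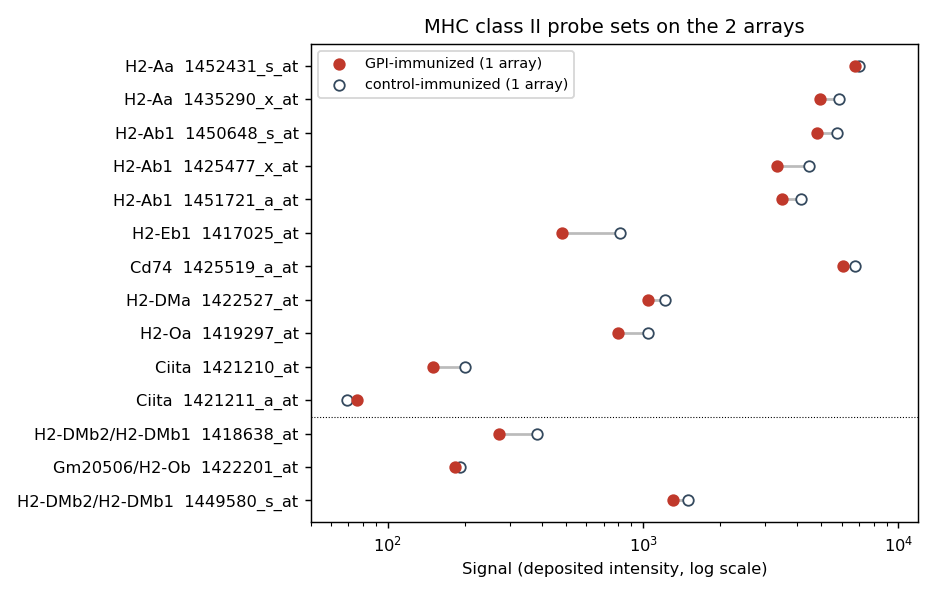
Signal of each class II probe set (deposited intensity, log scale) in GPI-immunized (filled) and control-immunized (open) splenocytes, 1 array each, with the 3 probe sets that carry a second symbol below the dotted line. The filled point lies left of the open one in every line except that of the dimmer Ciita probe set (75.5 and 69.0).

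The only yardstick of error on these arrays was the spread among probe sets of one gene, which had an SD of 0.28 on the log2 scale for a single probe set (2538 genes with several), a factor of 1.21. Variation between mice or between hybridizations is not in it. The log2 ratios of H2-Eb1, Ciita and H2-Oa were larger in size than this SD, and those of H2-Ab1, H2-DMa, Cd74 and H2-Aa were smaller. The share of all genes beyond this SD was not computed, so this split does not show the members to be unusual. This split held for H2-Eb1, H2-Oa, Cd74 and H2-Aa under every alternative that measured them, and not for the others. Averaged over probe sets, Ciita came to -0.14, inside the SD, and H2-Ab1 to -0.31, beyond it. H2-Ab1 was also beyond it under the 3 other scalings (-0.36 with division by the median, -0.31 with quantile normalization and -0.30 with loess centring), and H2-DMa under division by the median and quantile normalization (both -0.30). The SD used throughout is that of a single probe set on the deposited values. It was not recomputed for averages, which vary less than a single probe set, or for the other scalings. For a difference between probe sets the corresponding SD was 0.39. In the order of the ratios, H2-Eb1, Ciita, H2-Oa, H2-Ab1, H2-DMa, Cd74 and H2-Aa, no neighbours were further apart than that. H2-Eb1 stood lower than Ciita by a log2 difference of -0.34, lower than Cd74 by -0.59 and lower than H2-Aa by -0.70.

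The chains of the A molecule, which DBA/1 cells display, were among the brightest transcripts of the arrays. The brighter H2-Aa probe set (1452431_s_at) gave 6786.2 in GPI-immunized splenocytes and 7044.6 in control-immunized splenocytes, a ratio of 0.963. The other H2-Aa probe set (1435290_x_at) gave 4929.0 and 5834.4 in the same order, a ratio of 0.845. The α chain was therefore lower in GPI-immunized splenocytes by both readings, each within the yardstick. H2-Ab1, the β chain, was read by 3 probe sets. They gave 4782.5, 3351.9 and 3500.5 in GPI-immunized splenocytes, against 5754.8, 4478.0 and 4167.6 in control-immunized splenocytes. The ratios were 0.831, 0.749 and 0.840, so that all 3 lay below 1 and close together. The suffixes of these 5 probe sets (_s_at, _x_at and _a_at) mark probes that can match more than 1 transcript.

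The lowest ratios were seen in probe sets of the E chain genes. H2-Eb1 (1417025_at) gave 479.3 in GPI-immunized splenocytes and 808.8 in control-immunized splenocytes, a ratio of 0.593 (log2 ratio -0.75). H2-Ea, not among the 9 genes and annotated as a transcribed pseudogene in the reference strain C57BL/6J, had 3 probe sets. The brightest (1422891_at) gave 724.2 and 903.8 in the same order, a ratio of 0.801. The next (1422892_s_at) gave 448.5 and 879.3, a ratio of 0.510, lower than that of any member. The third (1426202_at) gave 4.3 and 6.6, within the signals of bacterial control probe sets (at most 7.2 in GPI-immunized splenocytes and 14.1 in control-immunized splenocytes), so no ratio is drawn from it. The signals of H2-Eb1 and of the other H2-Ea probe sets were well above that range on both arrays.

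The invariant chain and the peptide loading genes were lower as well. Cd74 (1425519_a_at), the invariant chain gene on chromosome 18, gave 6077.5 in GPI-immunized splenocytes and 6797.2 in control-immunized splenocytes, a ratio of 0.894. H2-DMa (1422527_at), the α chain of the peptide exchanger, gave 1046.2 and 1213.5, a ratio of 0.862. H2-Oa (1419297_at), the α chain of its inhibitor, gave 793.8 and 1044.1, a ratio of 0.760. H2-Oa thus stood below H2-DMa by a log2 difference of -0.18, which is under the 0.39 for a pair of probe sets.

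The β chains of both pairs could be read only with reservation. H2-DMb2, a close relative and neighbour of H2-DMb1, had its own probe set (1419744_at) with 1370.8 in GPI-immunized splenocytes and 1688.8 in control-immunized splenocytes, a ratio of 0.812. The probe sets annotated to both H2-DMb genes gave 271.3 and 385.0 (1418638_at, ratio 0.705) and 1307.5 and 1502.1 (1449580_s_at, ratio 0.870). The probe set annotated to H2-Ob together with Gm20506, a long noncoding RNA gene, gave 182.6 and 191.3 (1422201_at, ratio 0.955). These 3 values are assigned to no single gene, and each was lower in GPI-immunized splenocytes.

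The transactivator gene Ciita, on chromosome 16, was the dimmest member, and its probe sets differed in direction. The brighter one (1421210_at) gave 150.2 in GPI-immunized splenocytes and 200.5 in control-immunized splenocytes, a ratio of 0.749. The dimmer one (1421211_a_at) gave 75.5 and 69.0, a ratio of 1.09 and the only member probe set above 1. Ciita is transcribed from several promoters used by different cell types, and which transcripts each probe set reads is stated in no source used here. Averaged over both, the log2 ratio of Ciita was -0.14.

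Of the 7 measured members, 5 lie on chromosome 17 in 1 stretch that also holds genes of class I antigen processing. Between H2-Oa and H2-Ea, 12 genes had a single-symbol probe set. The 7 class II genes of the stretch, H2-DMb2 and H2-Ea included, had a median ratio of 0.812 and all lay below 1, with values between 0.593 and 0.963. The 5 other genes lie among them and had a median ratio of 0.971, between 0.878 and 1.05. They were the chromatin reader Brd2 (0.971), the immunoproteasome subunits Psmb9 (1.05) and Psmb8 (0.972), and the peptide transporter chains Tap1 (0.878) and Tap2 (0.946). Each gene was read by its brightest probe set, and the 4 probe sets of Tap1 ranged between 0.0484 and 1.32. The ranges overlapped, since H2-Aa at 0.963 lay above Tap1 and Tap2.

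**Figure D3:**
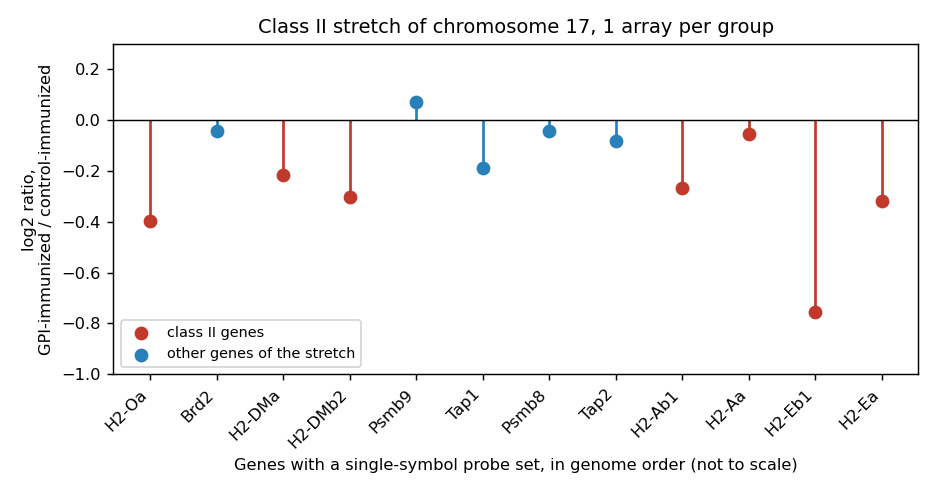
Log2 of GPI-immunized over control-immunized signal (vertical axis) for the 12 genes of the class II stretch of chromosome 17 that had a single-symbol probe set, in genome order and not to scale, 1 array per group. Read by the brightest probe set of each gene, the class II genes lie between -0.75 and -0.054, and the 5 other genes between -0.19 and 0.073.

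The DNA-bound factors of class II promoters showed no common direction. Of 7 such genes, 4 had ratios below 1 and 3 above, with a median of 0.981. Rfx5, the DNA-binding subunit of RFX, gave 205.6 in GPI-immunized splenocytes and 315.8 in control-immunized splenocytes, a ratio of 0.651. Its partner Rfxank gave dim signals of 50.6 and 72.3, a ratio of 0.700, while its other probe sets reached 1.34. The third subunit, Rfxap, had a ratio of 1.27. The NF-Y genes Nfya, Nfyb and Nfyc had ratios of 1.05, 0.981 and 0.864. Creb1 gave 82.2 and 54.0, a ratio of 1.52, the highest of its 4 probe sets, which ranged down to 0.0667. Among genes known to induce or silence Ciita, 6 of 9 measured had sufficient signal. They included the interferon-γ response factor Irf1 (1.00), Irf8 (0.854), the interferon-γ receptor chain Ifngr2 (1.35) and the myeloid and B cell factor Spi1 (1.61). Their median ratio was 0.947, with 3 below 1 and 3 above, and it turned to 1.10 when probe sets were averaged. Prdm1, which encodes the Ciita repressor Blimp-1, gave 33.1 in GPI-immunized splenocytes and 35.1 in control-immunized splenocytes, both under the 50th percentile.

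The list of enzymes of the class II loading compartment, which also holds the protease inhibitor gene Cst3 (1.03), divided into genes above and below 1. Of 11 genes, 6 had ratios below 1 and 5 above, with a median of 0.929 (1.03 when probe sets were averaged). By the brightest probe set none had a ratio of 0.8 or less, although the lowest of 4 cathepsin B (Ctsb) probe sets gave 0.792. Cathepsin S (Ctss), which makes the late cuts in the invariant chain, gave 2440.6 in GPI-immunized splenocytes and 2914.7 in control-immunized splenocytes, a ratio of 0.837. The thiol reductase Ifi30 (GILT) gave 2448.4 and 2929.8, a ratio of 0.836, and cathepsin L (Ctsl) and cathepsin H (Ctsh) had ratios of 0.842 and 0.861. Cathepsins Z and D (Ctsz and Ctsd) were higher, with ratios of 1.31 and 1.28, followed by cathepsin C (Ctsc, 1.24) and legumain (Lgmn, 1.16). The other probe sets of Ctsz ranged down to 0.854. In the list of membrane and sorting proteins of this compartment, 5 of 7 measured genes lay below 1, while the tetraspanin Cd9 (1.81) and the lysosomal membrane protein Lamp2 (1.66) lay above.

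Class I antigen presentation, which shows peptides from inside the cell to CD8+ T cells, gave a median ratio of 0.998 over 15 measured genes, 8 of them below 1 (1.05 when probe sets were averaged). The class I light chain B2m gave 5687.6 in GPI-immunized splenocytes and 5697.5 in control-immunized splenocytes, a ratio of 0.998 at a brightness close to that of the A chains. The heavy chain gene H2-K1 had a ratio of 0.905, and its 4 probe sets ranged between 0.649 and 0.999. H2-D1 had a ratio of 1.01, although its other probe sets, all dimmer, ranged between 0.231 and 6.17. The lowest of the list was the nonclassical H2-M3 (0.783). Costimulatory molecules, the second signal that antigen presenting cells give to T cells, were lower in 6 of 8 genes with sufficient signal, with a median ratio of 0.781. Of these 8, 5 had a ratio of at most 0.8. Cd40, the receptor for T cell help on B cells, gave 258.7 and 381.5 (ratio 0.678), and Cd83 gave 493.5 and 670.2 (0.736). The inhibitory ligands Pdcd1lg2 and Cd274 had ratios of 0.756 and 0.770, and Icosl 0.792. Cd86, a ligand of CD28, lay on the other side with 148.8 and 117.4 (1.27), its second probe set at 0.952.

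Markers of the cells that make class II molecules did not all lie on one side. Of 14 measured B cell markers, 13 had ratios below 1 and 10 of at most 0.8, with a median of 0.742. Their summed signal was 16585.7 in GPI-immunized splenocytes and 21200.2 in control-immunized splenocytes, a ratio of 0.782. The low affinity IgE receptor Fcer2a (0.491), Cd72 (0.612), the kinase Blk (0.674) and Vpreb3 (0.683) were furthest from 1, and none of the 14 was listed at 0. For comparison, the summed signal of the 7 class II genes was 20115.7 in GPI-immunized splenocytes and 22863.5 in control-immunized splenocytes, a ratio of 0.880. Most of this sum came from the bright genes H2-Aa (6786.2 and 7044.6), Cd74 (6077.5 and 6797.2) and H2-Ab1 (4782.5 and 5754.8). The other members, H2-Eb1, Ciita, H2-Oa and H2-DMa, weigh little in it. Of 9 dendritic cell markers with sufficient signal, 7 were below 1, with a median of 0.950 and ratios between 0.606 for the lectin Cd209a and 1.46 for Batf3. The summed signal of all 11 measured was 8927.2 and 9646.2, most of it from Cd24a (7636.6 and 8040.1), which other cells express too, and the ratio for the integrin Itgax was 0.822 and for the chemokine receptor Ccr7 0.641. Of 12 macrophage and monocyte markers with sufficient signal, 10 were above 1, with a median of 1.17. Of these 12, Cd5l (2.84), Ccr2 (1.78) and Lyz2 (1.38) were the highest. The summed signal of all 14 measured was 11191.3 in GPI-immunized splenocytes and 8797.8 in control-immunized splenocytes. Lyz2 was the largest part of this sum, with 5287.4 and 3826.7.

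Cells that make little or no class II in mice differed as well. Of 12 T cell markers with sufficient signal, 11 were below 1 (median 0.720), with sums over the 13 measured of 2087.0 in GPI-immunized splenocytes and 2852.4 in control-immunized splenocytes. All 13 neutrophil markers were above 1 (sums of 49499.7 and 34463.9). The medians of the B cell, dendritic cell and T cell markers lay below 1, as that of the class II genes did. Those of the macrophage and monocyte markers, of the neutrophil markers and of the plasma cell markers lay above 1. All 4 plasma cell markers with sufficient signal were above 1 (median 1.35), with Xbp1 (1.89) and Derl3 (1.66) the highest. The plasma cell median came to 1.06 over 6 genes when signals were raised to the 50th percentile. The part of these marker levels in the class II ratios was not tested. In RNA from whole splenocytes, fewer cells of a type and less RNA per cell cannot be told apart.

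**Figure D4:**
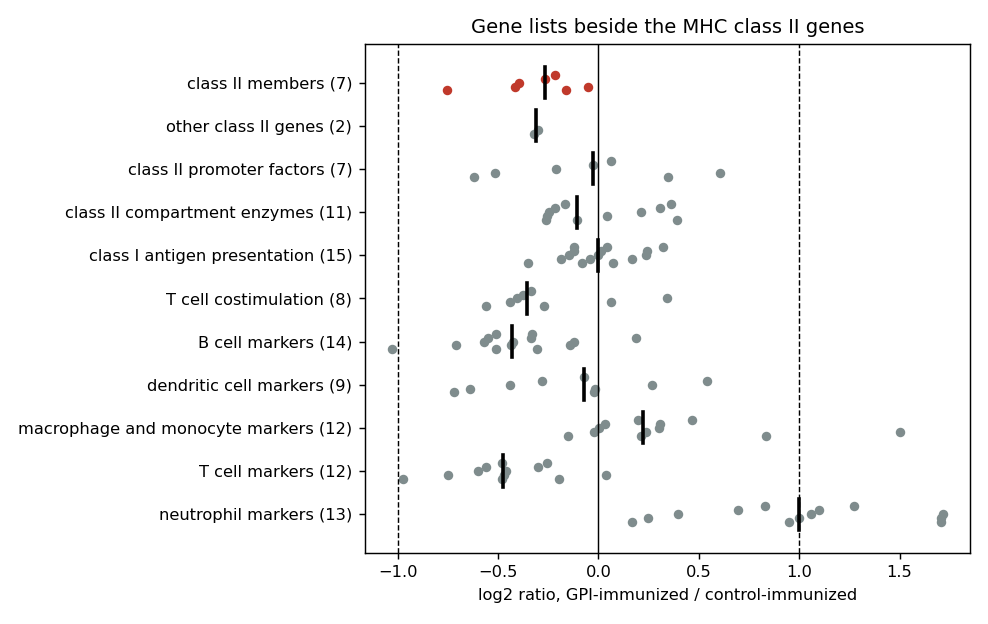
Log2 of GPI-immunized over control-immunized signal (horizontal axis) for genes with sufficient signal in 11 lists, 1 point per gene with the list median as a vertical bar, the number of genes in parentheses and dashed lines at 2-fold. The class II genes (median -0.27) lie left of 0 as most B cell (-0.43) and T cell (-0.47) markers do, while class I genes centre near 0 and neutrophil markers lie right of it.

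Brightness mattered for how these ratios can be read. The probe sets of H2-Aa, H2-Ab1 and Cd74 gave signals above the 98th percentile on both arrays, where the highest signal of all was 9762.3 in GPI-immunized splenocytes and 9642.3 in control-immunized splenocytes. Among the 81 genes with a mean signal of at least 4000, the central 95% of the ratios ran between 0.837 and 1.38 with a median of 1.01, and 35 were below 1. H2-Ab1 at 0.831 lay just under that range, and Cd74 and H2-Aa lay inside it. These genes are themselves among the 81, so the range is partly set by them. Across the 11 class II probe sets the rank correlation of the log2 ratio with the mean signal was 0.30, given as a description, since the probe sets share genes and both arrays.

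**Figure D5:**
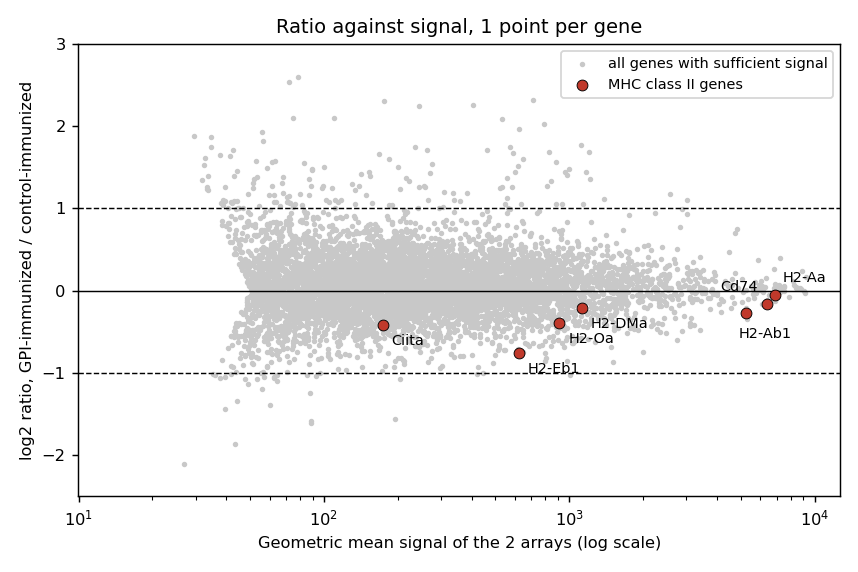
Log2 of GPI-immunized over control-immunized signal (vertical axis) against the geometric mean signal of both arrays (horizontal axis, log scale), 1 point per gene with sufficient signal (4 lie outside the plotted range) and 1 array per group. The 7 class II genes (large points) lie below 0 at every brightness, inside the dashed lines of a 2-fold ratio.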

How the data were processed

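The authors deposited 1 intensity per probe set and array on a linear scale, made with software that the methods call gene expression software. How probes were summarized, how arrays were scaled and which probe sets were called present is stated in no source used here. The labels describe labelled cDNA from a whole-transcript kit, the methods biotinylated cRNA. Of 22626 probe sets besides 64 control probe sets, 691 have several symbols and 1555 none in the platform annotation, which can be old. The IDs of all 7 measured members matched the RefSeq table of GRCm38.p6. Ratios (GPI-immunized over control-immunized) were formed on the deposited values, from the probe set of a gene with the highest mean log2 signal, with 3 signals of 0 set to 0.1. The median signals were 51.8 (GPI-immunized) and 48.65 (control-immunized). With 1 array per group, the number of arrays limits the precision and no p-value is given. Lists are described by counts and medians beside those of all genes. The members and lists were chosen with earlier results of these data known. The rule for named genes took all members, allowed the measured genes of the class II lists, and took up to 4 genes furthest from 1 in each other list. Not every gene it takes is printed. Irf1, Prdm1, B2m, H2-K1, H2-D1, Cd86, Icosl, Cd24a, Itgax, Flt3, Ly75, Fscn1 and the genes of the chromosome 17 stretch were named beyond this rule, after their values were seen. Alternatives were 3 other scalings, floors at the 25th and 50th percentile, averaging over probe sets, leaving out shared probe sets, and other filters. The steps were tested on simulated data, where every planted difference was beyond 2-fold and the noise was smaller than the spread among probe sets here. Differences as small as those of the members were not simulated. Software was Python 3.11.15 with pandas 2.3.3, numpy 2.4.6, statsmodels 0.14.6 (loess span 0.3), scipy 1.17.1 and matplotlib 3.10.9.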

Additional observations from a re-analysis of the deposited data

How the results depend on the processing

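All class II genes measured under a setting had ratios below 1 under each of the 9 alternatives, and the count at least 2-fold lower or higher stayed 0. The count below 1 was 4 where probe sets ending in _x_at, _s_at or _a_at were left out, because only 4 genes have another probe set, and 6 of 6 with the filter at the 75th percentile. The median log2 ratio of the class II genes ran between -0.41 (without shared probe sets) and -0.21 (averaged over probe sets). The share of all genes below 1 was 42.4% as deposited, 54.9% with median scaling, 53.4% with quantile normalization and 51.8% with loess centring. The count of class II genes with a ratio of at most 0.8 was 3 as deposited, where 12.0% of all genes were that low. It was 4 with median scaling (18.4% of all genes), 3 with quantile normalization (17.8%) and 3 with loess centring (1183 of 6958 genes). When probe sets were averaged it was 2, and the share of all genes that low was not computed for that setting. Averaging over probe sets turned the median log2 ratio of 3 lists near 0 above it, namely the Ciita inducers and silencers (-0.079 as deposited, 0.14 averaged), the compartment enzymes (-0.11 and 0.045) and class I antigen presentation (-0.0025 and 0.073). The median of the Ciita inducers and silencers was also at 0.0058 without a filter, and at 0.00 under the higher floor, the 50th percentile. The median log2 ratio of the plasma cell markers, which is 0.44 as deposited, moved to 0.080 with signals raised to the 50th percentile, to 0.15 without shared probe sets and to 0.099 without a filter, where the number of genes changes between 3 and 6. No replicate could be left out with 1 array per group. No paired analysis was possible because each group has 1 array.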
